A study of Ovis aries with 15 samples.

Results

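The lymphocyte genes CD3D, CD3G, CD8A, CD5, RHOH and NKG7 were followed through the promoter tables of 3 histone marks in the fat around the kidney of sheep. They were chosen by gene name, and they are 6 of the 18460 promoters named in any of the tables. Each table lists 5 of the 6 members: RHOH is listed for H3K27ac alone, NKG7 for H3K4me3 and H3K27me3, and CD3D, CD3G, CD8A and CD5 for all 3 marks.

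CD3D and CD3G encode chains of the CD3 complex, which carries the signal of the T cell receptor into the cell. CD8A encodes the co-receptor of cytotoxic T cells, CD5 a surface receptor that dampens T cell receptor signalling, RHOH a GTPase of blood cells needed for that signalling, and NKG7 a membrane protein of cytotoxic granules in natural killer cells and T cells; these roles are known mainly from human and mouse. H3K27ac and H3K4me3 are marks of active promoters, whereas H3K27me3 is laid down by Polycomb complexes at genes held silent. Fat holds resident T cells and natural killer cells among its adipocytes and vessels, so a tissue-wide profile of such a gene mixes the few cells that use it with the many that do not.

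The lambs were purebred wild-type merino animals, 80 days old per the sample labels and 89 ± 7 days old per the growth protocol. The fetuses, of the same breed and genotype, were taken at 132 ± 1 days of gestation, with term at 150 ± 3 days. Per the labels no animal was treated, yet every lamb title, and no fetal one, closes with the tag VEH, so that tag and stage cannot be told apart. Sex is not in the labels. H3K27ac and H3K27me3 were each profiled in lambs 1 and 2 and in fetuses 1 and 2, and H3K4me3 in the same animals and lamb 3. Each library is from 1 animal, and the promoter tables hold no column for the pooled inputs.

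Promoter reads numbered 5061861 to 6257855 in the H3K27ac libraries and 324662 to 430345 in the H3K27me3 libraries. Of the H3K4me3 libraries, lamb 1 held 9988032, lamb 2 held 2476065 and lamb 3 held 2542840, against 11139936 in fetus 1 and 17541582 in fetus 2. All values below are deposited promoter values rescaled to a common library size (scaled values), and changes are lamb minus fetus on the scale of log2(scaled value + 1). A promoter was called when the adjusted p of limma, fitted over the whole table of a mark, was under 0.05. In all 3 marks the change depended on level: in the weakest 25% of promoters the median change was 0.28 for H3K27ac, 1.14 for H3K4me3 and 0.24 for H3K27me3, and in the strongest 25% -0.31, -0.53 and -0.37. Each member was therefore set beside the 200 other promoters nearest to it in mean log2 value, called promoters of like level. Of 18 adipocyte markers, 15 were listed for H3K27ac, including ADIPOQ, PLIN1 and FABP4. The 15 had summed values of 3198 to 3333 in lambs and 4423 to 4613 in fetuses. These sums were not compared with another tissue, so they do not test the tissue label.

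H3K27ac was higher in lambs at 4 of the 5 listed members, RHOH, CD8A, CD5 and CD3D, and lower at 0. Over all 13222 promoters, 11.4% were called higher and 17.7% lower. Among promoters of like level, the share called higher was 14.5% for RHOH, 19% for CD8A, 13% for CD5, 20.5% for CD3D and 23% for CD3G. The share called lower there lay between 0.5% (CD3D) and 9.5% (RHOH). RHOH and CD8A rose beyond the 95th percentile of promoters of like level, whereas CD5, CD3D and CD3G stayed inside that range. The plot of scaled values by library shows that no lamb value overlapped a fetal value at any of the 5 members for this mark. The share of all promoters without overlap was not counted. With 2 against 2 libraries such a separation reaches only p = 0.333 in a two-sided exact permutation test.

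**Figure D1:**
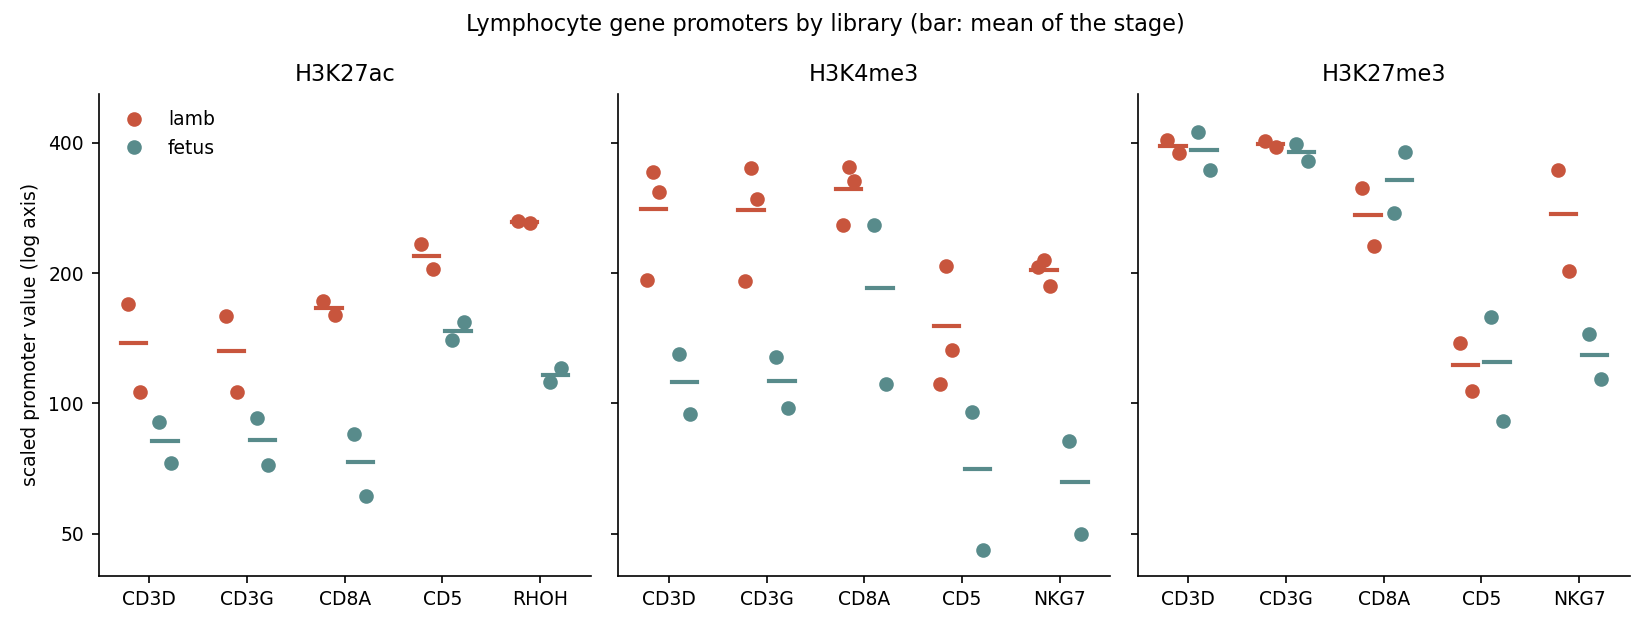
Scaled promoter values (log axis) of each listed member in every library, with lambs left of fetuses in each pair, 1 panel per mark and a bar at the mean of each stage. For H3K27ac the lamb and fetal points separate at all 5 members, for H3K4me3 they overlap at CD8A, and for H3K27me3 they separate at NKG7 alone. How many of all promoters separate was not counted.

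RHOH had the smallest spread. Its scaled values were 264 and 261 in lambs, against 112 and 121 in fetuses, from 499 to 623 reads per lamb library and 213 to 242 per fetal library. Both lambs stood above both fetuses by more than 2-fold, and animals of a stage were nearly level. The change was 1.17 (SE 0.16, limma adjusted p = 8.33e-05), while the 200 promoters of like level had a median change of 0.12 and a 95th percentile of 0.66. Of those 200 promoters, 1 changed at least as much. With a level-dependent scaling (cyclic loess), the change at RHOH was 1.06 and limma's adjusted p was 0.000678.

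CD8A had 172 and 160 in lambs, against 85.2 and 61.1 in fetuses. The lambs were close to each other, and fetus 1 stood above fetus 2. The change was 1.19 (SE 0.23, limma adjusted p = 0.00112) against a like-level median of 0.24 and 95th percentile of 0.87, and 1 of 200 promoters of like level changed at least as much. Under cyclic loess the change was 0.92 (limma adjusted p = 0.0117). CD8A was among the weaker promoters of the table, at level percentile 11.7, whereas RHOH stood near the middle, at 43.0.

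CD5 had 234 and 204 in lambs, against 140 and 154 in fetuses. Both lambs were higher, by less than at RHOH or CD8A. The change was 0.57 (SE 0.16, limma adjusted p = 0.0141), just under the like-level 95th percentile of 0.63, and 12 of the 200 promoters of like level changed at least as much.

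CD3D had 170 in lamb 1 and 106 in lamb 2, against 90.8 and 73.0 in fetuses, and CD3G had 159 and 106 in the lambs, against 92.6 and 71.9 in fetuses. Lamb 1 was high at both genes and lamb 2 lay only slightly above fetus 1. CD3D was called (change 0.71, SE 0.25, limma adjusted p = 0.0425) and CD3G was not (0.66, SE 0.25, limma adjusted p = 0.0544). Of the promoters of like level, 29 of 200 changed at least as much as CD3D and 43 of 200 at least as much as CD3G. The difference of lamb 1 minus lamb 2 was 0.68 at CD3D and 0.59 at CD3G, past the 95th percentile of 0.44 that promoters of like level showed between the same lambs.

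The CD3D and CD3G values may not be independent of each other. Their read counts differed by at most 6.78% of the CD3G count in every one of the 13 libraries, for instance 400 and 375 reads in H3K27ac lamb 1 and 202 and 202 in lamb 2. In the RefSeq gene table of a later sheep assembly (ARS-UI_Ramb_v3.0), CD3D is flanked by CD3E and by a gene with no symbol other than its identifier, LOC443398. No protein-coding gene there bears the symbol CD3G, and whether LOC443398 is CD3G was not tested. No source used here gives the width of the promoter window, and whether the windows of CD3D and CD3G share reads was not tested.

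Leaving out a library leaves 1 animal in its stage, which limma then takes to vary like the other stage, and the H3K27ac promoters called higher over the whole table numbered 142 without lamb 1, 268 without lamb 2, 2832 without fetus 1 and 2839 without fetus 2. With single libraries left out, the change ranged from 1.12 to 1.23 at RHOH, 0.96 to 1.43 at CD8A, 0.47 to 0.67 at CD5, 0.37 to 1.05 at CD3D and 0.37 to 0.96 at CD3G. RHOH was called each time. CD8A was not called without lamb 1 (change 1.14, limma adjusted p = 0.0732), nor CD5 without lamb 1 (0.47, 0.357) or lamb 2 (0.67, 0.0981), nor CD3D without lamb 1 (0.37, 0.694) or lamb 2 (1.05, 0.0644), while CD3G was called without fetus 1 (0.85, 0.000149) or fetus 2 (0.49, 0.0282). CD3D was also not called under cyclic loess (0.235), without limma's trend (0.0565) or with the deposited scaling kept (0.263), and CD5 was not called with the deposited scaling (0.417).

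**Figure D2:**
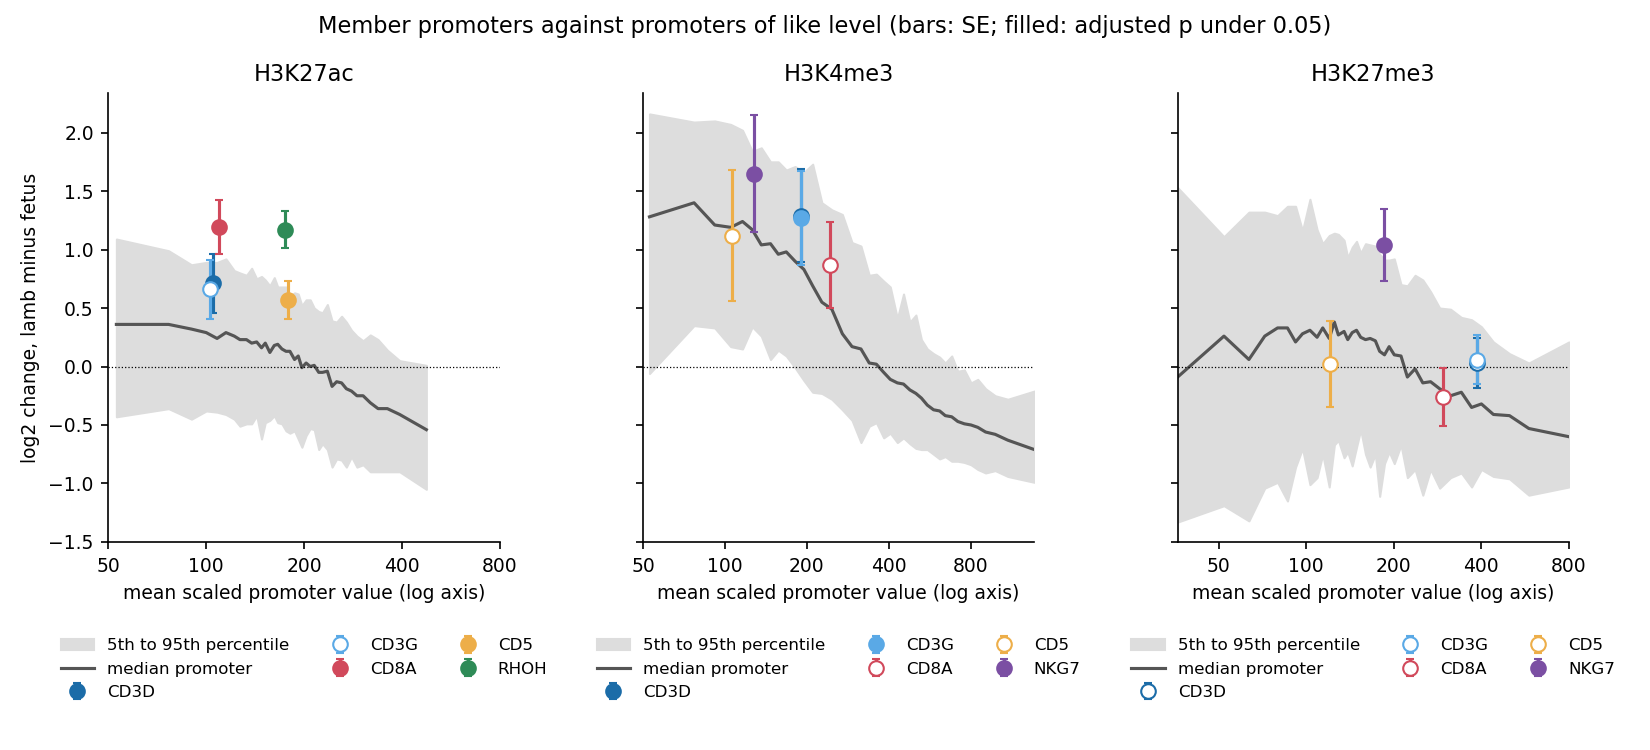
Change of each member (lamb minus fetus, log2) against its mean scaled value (log axis), with bars of 1 SE and filled symbols for an adjusted p under 0.05. The line is the median and the grey band the 5th to 95th percentile of all promoters in 40 bins of level, and RHOH and CD8A lie above the band for H3K27ac, NKG7 above it for H3K27me3 and no member above it for H3K4me3.

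H3K4me3, the mark of transcription start sites, was higher in lambs at 3 of the 5 listed members, NKG7, CD3D and CD3G, and lower at 0. Over the 12922 promoters of the mark, 8.33% were called higher and 1.90% lower, but among promoters of like level the share called higher was 22.0% for NKG7, 24.5% for CD3D and 26.0% for CD3G. No member passed the 95th percentile of its promoters of like level. The members were weak promoters for this mark, between level percentiles 9.09 (CD5) and 35.8 (CD8A), where the median promoter was itself higher in lambs.

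NKG7 had scaled values of 207, 215 and 187 in lambs, against 81.9 and 50.0 in fetuses. The 3 lambs were close together and all above both fetuses. The change was 1.65 (SE 0.50, limma adjusted p = 0.031), against a like-level median of 1.07 and 95th percentile of 1.87. The values in lambs 2 and 3 came from 89 and 80 reads, and that in lamb 1 from 344. At promoters of like level the deeper lamb 1 was mostly lower than lamb 2, with a 5th to 95th percentile of -1.64 to -0.21 for lamb 1 minus lamb 2, whereas NKG7 had -0.06.

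CD3D had 193, 343 and 308 in lambs, against 130 and 94.7 in fetuses, and CD3G had 192, 350 and 297 in lambs, against 128 and 97.5 in fetuses. All lambs were above both fetuses, and here lamb 1 was the lowest lamb, the reverse of its place for H3K27ac. For H3K4me3 lamb 1 was mostly below lamb 2 at promoters of like level too. Lamb 1 minus lamb 2 was -0.83 at CD3D and -0.86 at CD3G, against a like-level median of -0.66 for both. The change was 1.29 at CD3D (SE 0.40, limma adjusted p = 0.0357) and 1.27 at CD3G (SE 0.40, limma adjusted p = 0.037). The like-level medians were 0.87 and 0.88, and 40 and 46 of 200 promoters changed at least as much.

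CD5 had 111, 208 and 133 in lambs, against 95.4 and 45.9 in fetuses, with no overlap but a wide spread within both stages. Its change of 1.12 (SE 0.56, limma adjusted p = 0.146) was not called and lay at the like-level median of 1.16. CD8A had 258, 352 and 327 in lambs, against 258 in fetus 1 and 111 in fetus 2, so that the lowest lamb and the higher fetus coincided. The change at CD8A was 0.87 (SE 0.37, limma adjusted p = 0.0923), against a like-level median of 0.50.

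The H3K4me3 calls depended on how the level shift was scaled. Under cyclic loess, 0 of the 5 members and 0 of all promoters were called, and the changes were 0.54 at NKG7, 0.53 at CD3D, 0.51 at CD3G, 0.36 at CD8A and -0.12 at CD5. With the deposited scaling kept, which put the median of all changes at -1.28, the changes were 0.37, 0.01, -0.01, -0.41 and -0.15 and none was called. With single libraries left out the change stayed between 1.29 and 1.99 at NKG7, 1.07 and 1.57 at CD3D and 1.08 and 1.55 at CD3G. No member was called without lamb 2, lamb 3 or fetus 2, where 40, 8 and 608 promoters of the whole table were called higher, and 5 were called without fetus 1, where 2730 were; without a fetus that stage is 1 animal.

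**Figure D3:**
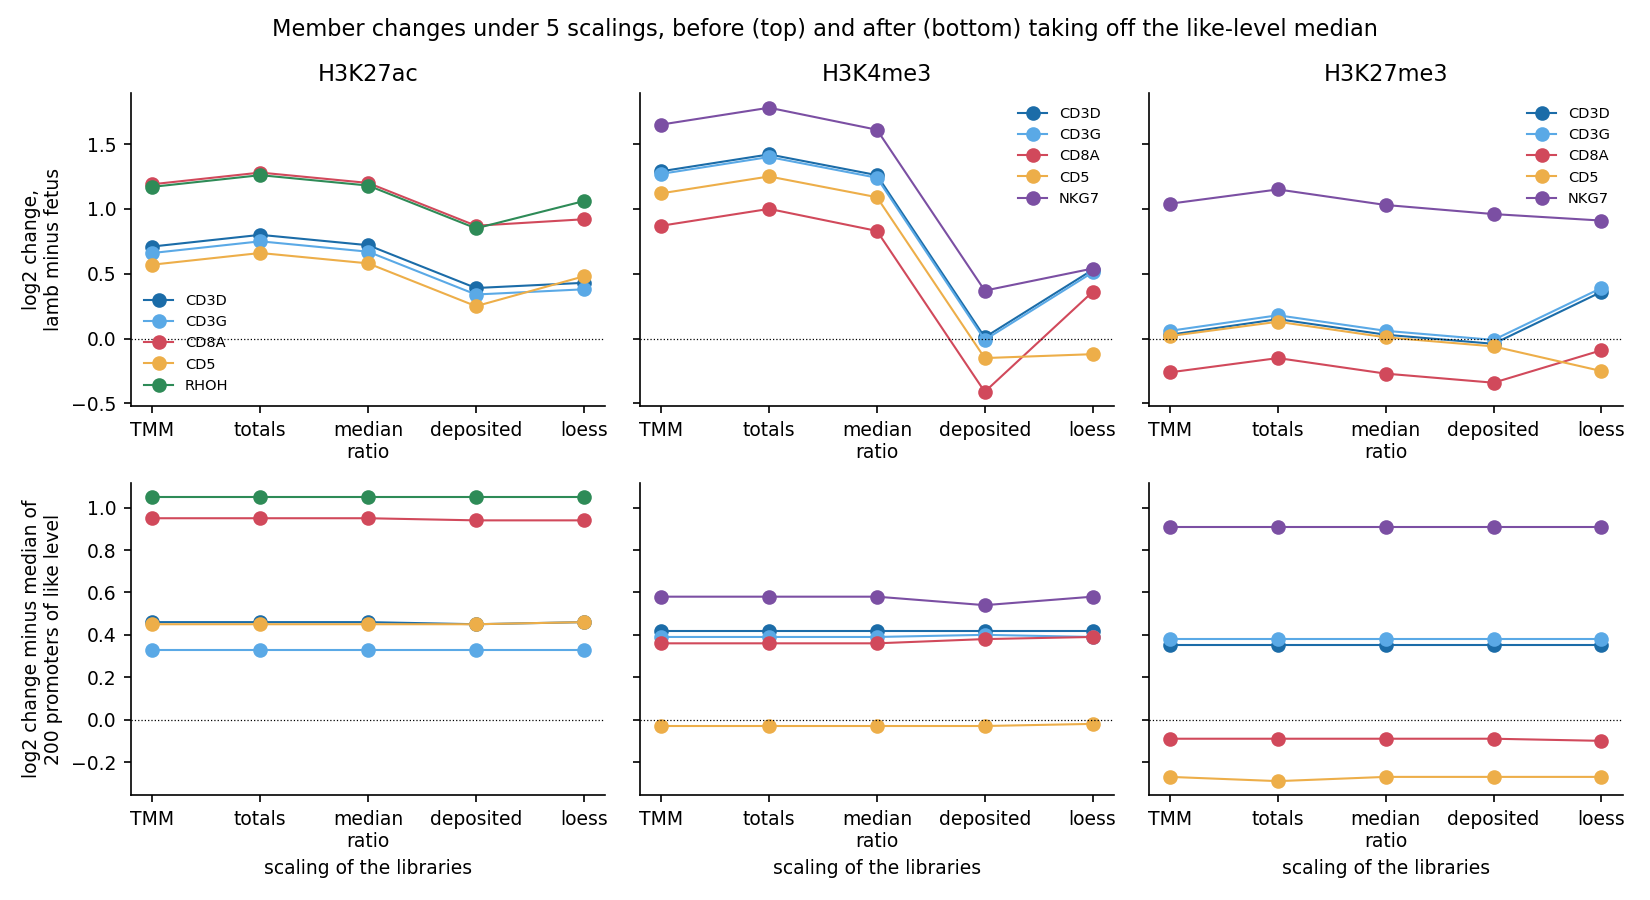
Change of each member (lamb minus fetus, log2) under 5 scalings of the libraries (top row) and the same change less the median of its 200 promoters of like level (bottom row), 1 column per mark. The upper lines drop with the deposited scaling, most of all for H3K4me3, while the lower lines stay flat, for instance 1.05 at RHOH for H3K27ac under all 5 scalings.

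The distance to promoters of like level was nearly the same under all 5 scalings, as each scaling moves a promoter and those of its level together. For H3K27ac it was 1.05 at RHOH, 0.94 to 0.95 at CD8A, 0.45 to 0.46 at CD3D and CD5 and 0.33 at CD3G. For H3K4me3 it was 0.54 to 0.58 at NKG7, 0.42 at CD3D, 0.39 to 0.40 at CD3G, 0.36 to 0.39 at CD8A and -0.03 to -0.02 at CD5. With single libraries left out it moved more, between 0.96 and 1.2 at RHOH and between 0.77 and 1.17 at CD8A for H3K27ac. Without lamb 1 it was 0.01 at CD3D and 0.00 at CD3G for H3K27ac.

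H3K27me3, the Polycomb mark, was higher in lambs at NKG7 alone, 1 of the 5 listed members, and lower at 0. Over the 6334 promoters of the mark, 4.42% were called higher and 8.83% lower. NKG7 had scaled values of 347 in lamb 1 and 202 in lamb 2, against 145 and 114 in fetuses. Lamb 1 stood well above the others, and both lambs lay above both fetuses. The change was 1.04 (SE 0.31, limma adjusted p = 0.0309), against a like-level median of 0.13 and 95th percentile of 0.90, and 4 of 200 promoters of like level changed at least as much. The reads behind it were few, 106 and 49 in lambs and 43 and 34 in fetuses. The call was lost with any 1 library left out (limma adjusted p between 0.109 without fetus 1 and 0.293 without fetus 2), under cyclic loess (0.0717), with the deposited scaling (0.0664) and without limma's trend (0.137), while the change stayed positive, between 0.64 and 1.43. With a library left out, 1 stage has 1 animal, and the promoters of this mark called higher numbered 0 to 520.

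CD3D and CD3G carried much H3K27me3 in both stages. CD3D had 406 and 379 in lambs, against 423 and 347 in fetuses, and CD3G had 403 and 392 in lambs, against 397 and 364 in fetuses. The stages overlapped at both genes, which stood at level percentiles 87.7 and 87.8 of the table. The changes were 0.03 at CD3D (SE 0.21, limma adjusted p = 0.931) and 0.06 at CD3G (SE 0.21, limma adjusted p = 0.857), where the median promoter of like level changed by -0.32 and -0.31.

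CD8A had 314 and 231 in lambs, against 276 and 380 in fetuses, and CD5 had 138 and 107 in lambs, against 158 and 90.9 in fetuses. The stages overlapped at both. The changes were -0.26 at CD8A (SE 0.25, limma adjusted p = 0.496) and 0.02 at CD5 (SE 0.37, limma adjusted p = 0.981), both within the range of promoters of like level. The CD5 values came from 26 to 47 reads a library.

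Read across the marks, every member had a positive change for each active mark that listed it. These changes lay between 0.57 and 1.19 for H3K27ac and between 0.87 and 1.65 for H3K4me3. The medians of their promoters of like level were positive too, 0.12 to 0.34 for H3K27ac and 0.50 to 1.16 for H3K4me3. For H3K4me3 CD5 did not exceed its like-level median, so the shared sign is not particular to the members. CD3D was called for both active marks. CD3G was called for H3K4me3 alone and CD8A and CD5 for H3K27ac alone, and whether their changes differ between marks, or from that of CD3D, was not tested. NKG7 was called higher for H3K4me3 and also for H3K27me3, which are marks of opposite association. In bulk tissue, more cells of a type and more of a mark per cell cannot be told apart, and the same holds for 2 marks on the same cells or on different ones.

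The authors' deposited table gives folds of the same direction at the called members. For H3K27ac the authors' deposited table lists 2.26 at RHOH, 2.25 at CD8A, 1.67 at CD3D, 1.60 at CD3G and 1.49 at CD5, with unadjusted p-values between 1.99e-12 at RHOH and 0.0108 at CD3G. For NKG7 the authors' deposited table lists a fold of 3.07 for H3K4me3 (unadjusted p = 0.00133) and 2.12 for H3K27me3 (unadjusted p = 0.00107).

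Genes next to the members in RefSeq order moved in either direction. RMND5A, beside CD8A, fell for H3K27ac (179 ± 15.4 in lambs and 301 ± 10.4 in fetuses, SD, n = 2 each, change -0.74, limma adjusted p = 0.000905, like-level median -0.05). N4BP2, beside RHOH, fell as well (233 ± 20.0 in lambs and 429 ± 33.4 in fetuses, change -0.88, limma adjusted p = 0.000124, like-level median -0.32). Beside CD5, VPS37C had an H3K27ac change of 0.03 (limma adjusted p = 0.877), above its like-level 95th percentile of 0.02. For H3K4me3 the changes were 1.16 at CD6 (limma adjusted p = 0.193, like-level median 1.42) and 1.01 at VPS37C (0.0733, like-level median 0.75), next to 1.12 at CD5 itself. LIM2, a gene of the eye lens beside NKG7, was picked out after its values were seen. It had H3K27ac values of 125 and 124 in lambs, against 56.5 and 44.2 in fetuses (change 1.30, limma adjusted p = 0.00168, like-level 95th percentile 0.98). For H3K27me3 it had 197 and 115 in lambs, against 70.6 and 47.1 in fetuses (change 1.37, limma adjusted p = 0.0343), so LIM2 was higher in lambs for H3K27me3 as NKG7 was, with lamb 1 again above lamb 2. Whether the windows of LIM2 and NKG7 share reads was not tested.

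T cell genes were taken from a list of 30 that includes 4 of the members (CD3D, CD3G, CD8A and CD5). For H3K27ac 15 were listed, these 4 members among them. Against 11.4% of all promoters called higher and 17.7% lower, 5 of the 15 were called higher and 0 lower. Among promoters of like level to the 4 members the share called higher was 13% (CD5) to 23% (CD3G). The 5 called higher were the members CD3D, CD5 and CD8A, and outside the members the inhibitory receptor TIGIT and THEMIS, which tunes T cell receptor signalling during thymic selection. TIGIT had 193 ± 41.5 in lambs and 119 ± 7.96 in fetuses (SD, n = 2 each, change 0.67, limma adjusted p = 0.0143), and THEMIS 108 ± 2.55 in lambs and 63.5 ± 18.3 in fetuses (change 0.78, limma adjusted p = 0.0386). The median change of the 15 was 0.33, against 0.02 for all promoters, and 11 of the 15 lay above the median of their promoters of like level. These list values include the 4 members, so they are not separate from the member results, and they were not computed without the members. TIGIT and THEMIS stayed below their like-level 95th percentiles of 0.71 and 1.04. Changes were negative at CD2 (-0.03), CD96 (-0.01) and SIT1 (-0.18), all outside the members, and positive at 12 of the 15. Under cyclic loess 2 of the 15, CD8A and CD5, were called higher. The list's median distance to promoters of like level was 0.18 for H3K27ac.

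For H3K4me3, 13 T cell genes were listed and all 13 had positive changes, with a median of 1.12, but their median distance to promoters of like level was -0.03 and 6 of 13 lay above it. CD3D and CD3G were the 2 that were called. For H3K27me3, 10 were listed, 0 were called in either direction, and the median change was 0.03.

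Among 22 genes of cytotoxic and natural killer cells, NKG7 included, 7 were listed for H3K4me3. Called higher were 3 of them: NKG7 and the receptors KLRK1 (160 ± 64.1 in lambs and 43.7 ± 14.6 in fetuses, SD, n = 3 lambs and 2 fetuses, change 1.82, limma adjusted p = 0.0475) and KLRF1 (298 ± 63.0 in lambs and 109 ± 35.3 in fetuses, change 1.46, limma adjusted p = 0.0203). The like-level medians were 1.16 at KLRK1 and 0.85 at KLRF1, with 95th percentiles of 2.08 and 1.68 that neither gene passed. Over the 7 listed genes the median distance to promoters of like level was 0.03, and 4 of the 7 lay above their like-level median. Of all H3K4me3 promoters 8.33% were called higher, and of the promoters of like level to NKG7 22%. For H3K27ac 3 of the 22 were listed and 0 called, and for H3K27me3 8 were listed and NKG7 was the 1 called.

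Markers of other cells were also followed, against the 11.4% of all H3K27ac promoters called higher and 17.7% called lower. For H3K27ac, pan-leukocyte genes, RHOH among them, were called higher at 5 of 11 listed of 30 (with CORO1A, CD69, HCLS1 and ARHGAP9) and lower at 1, the integrin gene ITGAL (change -0.71). Macrophage and myeloid genes were called higher at 2 of 9 listed of 24, CD86 (0.95) and MPEG1 (0.65), and lower at 1, MRC1 (-0.44), and their sum was 1800 to 1892 in lambs and 1573 in both fetuses. The T cell sum was 2284 to 2650 in lambs and 1953 to 1978 in fetuses, and the pan-leukocyte sum 2027 to 2486 in lambs and 1839 to 1850 in fetuses. These sums do not take off the change with level. The median distance to promoters of like level was 0.32 for pan-leukocyte, 0.29 for macrophage and myeloid and 0.18 for T cell genes. Adipocyte genes were called lower at 6 of 15 and higher at 0 (median distance to promoters of like level -0.19), and endothelial genes lower at 3 of 13, a share near that of all promoters, and higher at 0 (median distance 0.06). Under cyclic loess the H3K27ac calls were 2 higher and 1 lower for pan-leukocyte genes, 3 higher for macrophage and myeloid genes, 5 lower for adipocyte genes and 0 for endothelial genes. Of 3 mast cell genes listed for H3K27ac, KIT was called higher (0.38) and CPA3 lower (-0.49) before that scaling. The part of these other cells in the values of the members was not tested.

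Over all H3K4me3 promoters 8.33% were called higher and 1.90% lower. For H3K4me3, B cell genes were called higher at 1 of 6 (FCRL1, change 1.79). Pan-leukocyte genes were called higher at 2 of 14 (CD53, 2.11, and HCLS1, 1.65). Macrophage and myeloid genes were called higher at 3 of 10 (CD68, C1QA and MPEG1), and 0 were lower in each of these lists. Their sums were 803 to 1504 in lambs and 393 to 674 in fetuses for B cells, 2815 to 3764 in lambs and 1668 to 1721 in fetuses for pan-leukocyte genes, and 2468 to 3269 in lambs and 1557 to 1931 in fetuses for macrophages. Weak promoters of this mark were higher in lambs in general, and the sums do not take that off. The median distances to promoters of like level were 0.21 for B cell, 0.08 for pan-leukocyte and 0.15 for macrophage and myeloid genes. Endothelial genes were called higher at 1 of 13, ERG (1.55), and lower at 0 (median distance 0.1). Adipocyte genes were called lower at 2 of 15, PLIN1 (-1.21) and ADRB3 (-0.82), and higher at 0 (median distance -0.33). No listed marker was at 0, the lowest being VPREB3 with 17.5 in a fetal library. Under cyclic loess 0 genes of these lists were called. For H3K27me3, macrophage and myeloid genes were called higher at 2 of 7 listed (EMR1, 1.13, and C1QC, 1.22) and lower at 1 (CD14, -1.31), and B cell genes at 0 of 9. Endothelial genes were called lower at 1 of 4 listed, FLT1 (-0.8), and higher at 0, and adipocyte genes were called at 0 of 7. Of all H3K27me3 promoters 4.42% were called higher and 8.83% lower. HCLS1, a leukocyte adaptor of the actin skeleton, was the gene of these lists that was called higher for both active marks besides CD3D and MPEG1.

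**Figure D4:**
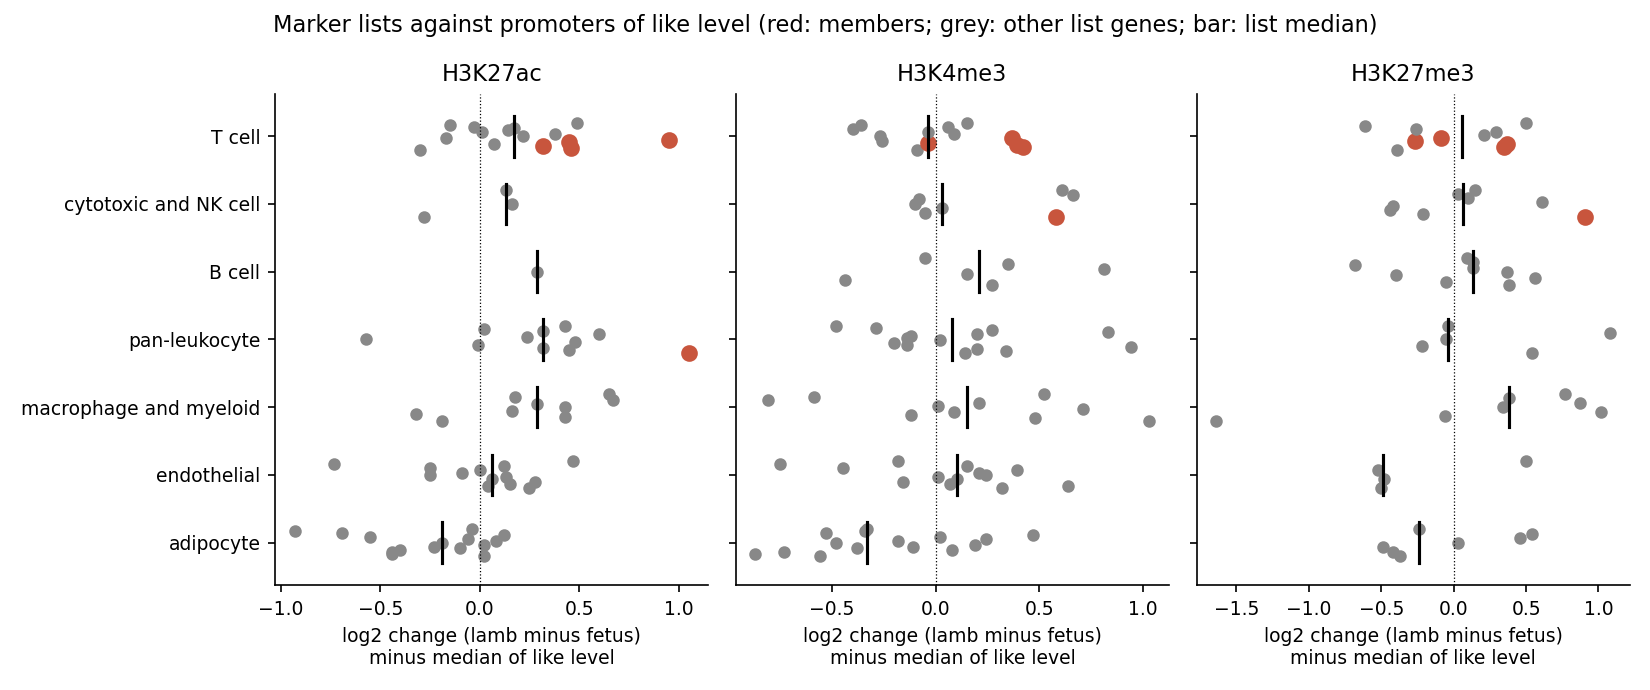
Change (lamb minus fetus, log2) less the median of promoters of like level for every listed gene of 7 marker lists, 1 panel per mark, with members in red, other genes in grey and a bar at the median of each list. For H3K27ac the T cell median lies at 0.18, the pan-leukocyte median at 0.32 and the adipocyte median at -0.19, and the RHOH and CD8A points lie farthest to the right in their rows.

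The promoters whose values lay nearest to a member's over all libraries of a mark were found by the root mean square difference of log2 values. CD3D and CD3G were nearest to each other for H3K27ac (0.05 over 4 libraries) and for H3K4me3 (0.04 over 5 libraries). For H3K27ac, TRABD followed for both, ZBTB7A, PRDM6 and HTR7 were nearest to CD8A (0.07 to 0.08), KIAA1217, PLCB4 and GLIPR1 to CD5 (0.04 to 0.05) and THPO, PLAUR and ERICH1 to RHOH (0.13 to 0.14). For H3K4me3, RALY and EGOT followed for CD3D and CD3G, LOXL1, LTF and IL13 were nearest to CD8A, PVRIG, DPEP3 and SPESP1 to CD5 (0.10 to 0.17), and STS, PRRC2B and ARRDC4 to NKG7 (0.17 to 0.21). For H3K27me3 the nearest were CYP4X1 for CD3D and CD3G, MSI1 for CD8A, HTATIP2 for CD5 and CCDC27 for NKG7.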

How the data were processed

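Native chromatin was cut with micrococcal nuclease, precipitated with 10 µg of antibody and sequenced as 50 bp single-end reads, per the labels' protocols. Mapping was to Oar_v3.1, per the labels, while bedtools 2.19.0, MACS and edgeR are named, with no role, in the submitters' processing notes. The promoter values deposited by the authors are a scaled signal. In a library they are whole multiples of 1 step (within 0.02 reads at 99.98% or more of them), from which promoter reads were counted, as a description. No source used here gives the authors' factor or window. Every listed promoter has a deposited signal of at least 50.2 in its highest library, so that promoters below that signal in every library are not analysed here. The authors also deposited read counts per peak region, used here for depth, and a signed fold change (a score) and an unadjusted p-value per promoter, per the file headers from an EDGE test. For H3K27me3 these 2 headers are exchanged, as the values show. One blank line was left out.

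Libraries were grouped by stage from their titles. Values were divided by column total times TMM factor (edgeR 4.0.16), relative to the mean, put on the scale of log2(value + 1) and fitted by limma-trend (limma 3.58.1, R 4.3.3), lamb minus fetus, with Benjamini-Hochberg adjustment over each table. The code was tested on simulated data that held no change with level, so that test does not bear on the level shift seen here. For a single value, the smallest p of a two-sided exact permutation test is 0.333 with 2 against 2 libraries and 0.2 with 3 against 2. Promoters of like level are 100 below and 100 above in mean log2 value, and are a description with no test. The members, marker lists, tests and the rule for naming genes (members, called genes of the lists and the 3 nearest promoters) were chosen with earlier results of these data known. Gene order came from RefSeq (ARS-UI_Ramb_v3.0), and no promoter sequence was used here.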

Additional observations from a re-analysis of the deposited data

How the results depend on the processing

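The number of members called was 4 for H3K27ac, 3 for H3K4me3 and 1 for H3K27me3. With the deposited scaling kept it was 2, 0 and 0, under cyclic loess 3, 0 and 0, and without limma's trend 3, 1 and 0. With single libraries left out it ranged from 1 to 5 for H3K27ac, from 0 to 5 for H3K4me3 and was 0 for H3K27me3. Without lambs 2 and 3 together, a setting chosen after the depths were seen, 0 were called for H3K4me3 and 1 member passed the like-level 95th percentile. Members past that percentile numbered 2, 0 and 1 for the 3 marks, and 2 to 4, 0 and 0 to 1 with single libraries left out (chosen after seeing the data). They were 2, 0 and 1 also with 500 neighbours, or with neighbours by fetal mean. Reversed signs occurred at members that had not been called or had lost their call. With the deposited scaling these were -0.01 (CD3G), -0.41 (CD8A) and -0.15 (CD5) for H3K4me3 and -0.04 (CD3D), -0.01 (CD3G) and -0.06 (CD5) for H3K27me3. Under cyclic loess they were -0.12 and -0.25 at CD5 for H3K4me3 and H3K27me3. With single libraries left out, the H3K27me3 change ranged from -0.11 to 0.16 at CD3D and from -0.38 to 0.39 at CD5. The cause was not tested, apart from the level shift that cyclic loess removes by construction.

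Counts over all promoters moved by more than 1.5 times as well. With single libraries left out, 142 to 2839 were called higher for H3K27ac, 8 to 2730 for H3K4me3 and 0 to 520 for H3K27me3. The split of higher and lower calls was 2314 and 1789 with column totals and 167 and 4012 with the deposited scaling for H3K27ac, and 55 and 5623 with the deposited scaling for H3K4me3.

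Same-numbered animals of the stages are different animals per the titles, so the numbers were not used as a pairing. Over all promoters their deviations correlated at 0.28, -0.39 and 0.10 for H3K27ac, H3K4me3 and H3K27me3. Such a correlation describes the libraries and cannot decide whether the numbers pair animals. With a replicate block, 5, 0 and 1 members were called, and limma's adjusted p was 0.81 at each formerly called H3K4me3 member. The H3K4me3 block fit also left out lamb 3, and without lamb 3 but with no block 0 members were called as well. Tests on recovered promoter reads (edgeR, DESeq2) were foreseen and not run, since the deposited promoter values are a scaled signal. Depth was lowest for H3K27me3, with 26 to 126 reads per member and library.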
